A study of Gossypium hirsutum with 6 samples.

Results

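In upland cotton (Gossypium hirsutum), 6 genes that carry gibberellin or auxin names were followed in leaves of droughted and control plants: the gibberellin receptor gene GID1-2 (LOC107924318), the DELLA repressor gene GAI2 (LOC107918217), and the auxin genes Aux2 (LOC107941658), Aux3 (LOC107906148), Aux4 (LOC107923964) and Aux6 (LOC107928986). They comprise 9 probe sets, found by matching these names to the RefSeq synonyms of probe sets that the platform table pairs with exactly 1 gene. They are 6 of 520 genes with such a probe set, and 9 of 24029 probe sets tested. The 6 genes were chosen from results of the same arrays, by their differences between drought and control leaves, so those differences are given below as a description and carry no test. Drought plants of the cultivar Bikaneri Nerma had received no irrigation for 18 to 19 days, beginning at peak flowering, and were sampled when soil moisture was 19.5%, which was 50% of that of the control plots. Control plants were of the same cultivar and stood in irrigated plots of the same open field. Each arm had 6 plots and gave 3 leaf RNA samples, each hybridised to its own Affymetrix cotton array. By their titles the 3 samples of an arm are separate biological replicates, but the plants or plots behind each are not named, and p-values cover no more than the spread among them.

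Gibberellin is sensed by GID1, a soluble receptor that, once it holds the hormone, binds DELLA proteins and brings about their degradation. DELLA proteins such as GAI repress growth, so the receptor and the repressor work against each other, and in Arabidopsis DELLA proteins also promote transcription of GID1 genes. Auxin acts through a similar logic: its receptors mark Aux/IAA repressors for degradation, which frees auxin response factors, and many Aux/IAA genes are themselves switched on by auxin within a short time. The tables used here give the names Aux2, Aux3, Aux4 and Aux6 without a product, so which class of auxin gene each one encodes is not stated.

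The deposited log2 values were centred on each probe set's median over the 6 arrays, so a value of 0 is a probe set's own midpoint, levels of different genes cannot be compared, and the drought and control arrays nearest to each other lie equally far above and below 0 when the groups do not overlap. After the centring, arrays of different groups correlated negatively across probe sets (r from -0.945 to -0.935) and those of a group positively (0.913 to 0.944). With the levels removed, these correlations see only differences between arrays. The direction is read as a higher value for more signal, which the table does not state. The number of arrays, 3 per group, limits the precision of every value. Over all probe sets the median difference, drought minus control, was 0.12, and 55.7% passed an adjusted p of 0.05 in limma. Of the calls 63.4% were higher in drought as deposited, 53.1% when arrays were given a median of 0, 50.9% after quantile normalization, 57.7% after centring on reporter probe sets (sequences foreign to cotton) and 35.5% after centring on the hybridisation spike-ins (labelled RNAs added in known amounts). In leaf RNA as a whole, fewer cells of a type and less RNA per cell cannot be told apart.

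Among the hormone genes, GID1-2 had the largest difference of the 6 genes and was higher in drought leaves, GAI2 was lower, and the auxin genes parted in both directions. On the GID1-2 probe set the centred log2 values were 1.01, 0.83 and 0.79 in drought leaves, against -0.91, -0.94 and -0.79 in control leaves. All 3 drought arrays lay far above all 3 control arrays, with a gap of 1.59 between the nearest 2. The drought mean was 0.88 ± 0.11 and the control mean -0.88 ± 0.08 (SD, n = 3 each), a difference of 1.76 (SE 0.08) or 3.38-fold. Here and below the SE is that of the limma fit, which draws a probe set's variance towards that of all probe sets. Increases at least as large were found for 2.12% of the tested probe sets. The probe set is of sense design and its identifier carries no mark of probes shared with other transcripts.

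GAI2 was measured by 1 probe set of antisense design whose probes are marked as shared between transcripts, so neither the strand nor the gene copy behind its value is shown. Its values were -0.37, -0.45 and -0.41 in drought leaves, against 0.41, 0.41 and 0.37 in control leaves. The arrays of each group lay close together and the groups did not overlap. The means were -0.41 ± 0.04 in drought leaves and 0.40 ± 0.02 in control leaves (SD, n = 3 each), a difference of -0.81 (SE 0.07), which is 1.75-fold. Of the tested probe sets, 10.03% were lower by at least as much, and 2.57% had a smaller spread within the groups than the residual SD of GAI2, 0.0325.

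Because GID1-2 and GAI2 were read on the same arrays, the difference between them within an array holds no offset of the array as a whole. GID1-2 minus GAI2 was 1.38, 1.28 and 1.20 in drought leaves, against -1.32, -1.35 and -1.16 in control leaves. The change was 2.56 on the log2 scale, or 5.91-fold. Its sign and size follow from the separate differences of these chosen genes and from the centring, so it adds only the spread over arrays, and the limits of the GAI2 probe set hold for it too.

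**Figure D1:**
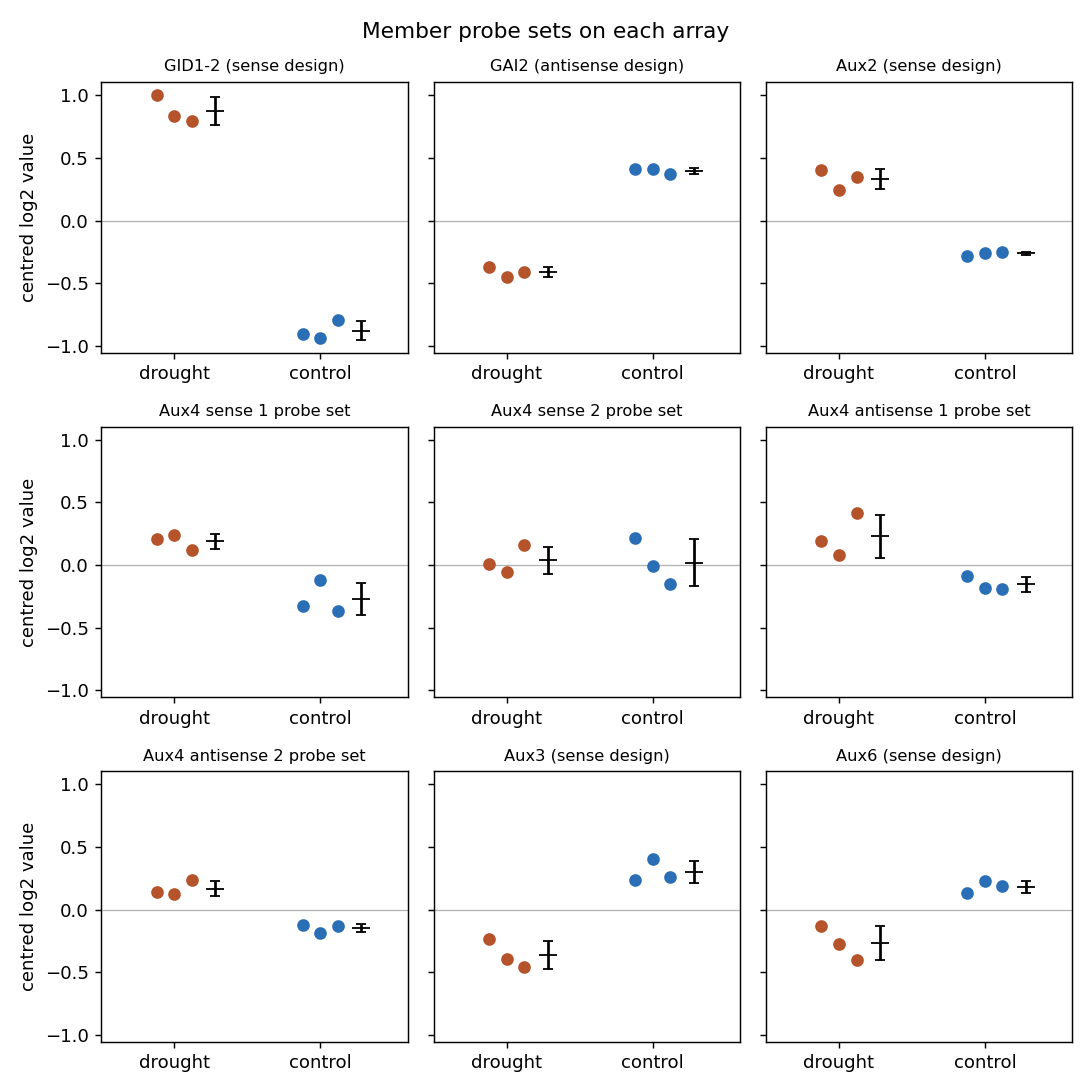
Centred log2 values (vertical axis) of the 9 probe sets on the 3 drought and 3 control arrays, 1 point per array, with the group mean and SD beside the points. GID1-2, Aux2 and 3 of the 4 Aux4 probe sets have all drought points above all control points, GAI2, Aux3 and Aux6 have all of them below, and the Aux4 sense 2 probe set overlaps.

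Of the auxin genes, Aux2 was higher in drought leaves, and Aux3 and Aux6 were lower. Aux4 was higher on 3 of its 4 probe sets, among them both of antisense design, and near 0 on the other, of sense design. The Aux2 values were 0.40, 0.25 and 0.35 in drought leaves, against -0.28, -0.26 and -0.25 in control leaves. The control arrays were nearly level and lay wholly below the drought arrays. Aux2 averaged 0.33 ± 0.08 in drought leaves and -0.26 ± 0.02 in control leaves (SD, n = 3 each), a difference of 0.59 (SE 0.07) or 1.51-fold, and 15.4% of the tested probe sets were higher by at least as much.

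Aux3 had values of -0.24, -0.40 and -0.45 in drought leaves, against 0.24, 0.40 and 0.26 in control leaves. Drought replicate 1 and control replicate 1 were the arrays nearest to each other, 0.476 apart, and the groups did not overlap. The means were -0.36 ± 0.11 in drought leaves and 0.30 ± 0.09 in control leaves (SD, n = 3 each), a difference of -0.66 (SE 0.09) or 1.58-fold, and 11.6% of the tested probe sets were lower by at least as much. Aux6 had values of -0.13, -0.28 and -0.40 in drought leaves, against 0.13, 0.22 and 0.19 in control leaves. Its drought arrays were spread more widely than its control arrays, with an SD of 0.13 against 0.05 (n = 3 each), and still lay wholly below them. The Aux6 difference was -0.45 (SE 0.09) or 1.36-fold. The probe sets of Aux2, Aux3 and Aux6 are all of sense design and all marked as holding probes shared between transcripts, so related gene copies of this polyploid genome may contribute to each value.

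Aux4 is the only one of the 6 genes with more than 1 probe set. Its 4 probe sets belong to 1 sequence cluster of the array and are called here sense 1, sense 2, antisense 1 and antisense 2 after the design letter and the sequence number in their identifiers. They did not give the same difference. Sense 1 had values of 0.21, 0.24 and 0.12 in drought leaves, against -0.33, -0.12 and -0.36 in control leaves. Control replicate 2 lay nearest to the drought arrays, and the groups did not overlap. The difference was 0.46 (SE 0.09) or 1.38-fold.

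Sense 2 had values of 0.01, -0.05 and 0.16 in drought leaves, against 0.22, -0.01 and -0.15 in control leaves. Here the groups overlapped fully, control replicate 1 being the highest and control replicate 3 the lowest of the 6 arrays, and the difference was 0.02 (SE 0.11). Antisense 1 had values of 0.19, 0.08 and 0.41 in drought leaves, against -0.08, -0.18 and -0.19 in control leaves. Antisense 2 had values of 0.14, 0.13 and 0.23 in drought leaves, against -0.13, -0.18 and -0.13 in control leaves. On both antisense probe sets the drought arrays lay above the control arrays, with drought replicate 3 the highest. Their differences were 0.38 (SE 0.10) and 0.31 (SE 0.07). The median over the 4 probe sets, of both designs together, was 0.35. Because all 4 share the same arrays they are not replicates of the gene. The strand behind the antisense-design values is not shown, and the probes of antisense 1 are marked as shared between transcripts. The identifiers of sense 1 and sense 2 carry another mark, for probes that match more than 1 transcript of the same gene. Which of the 4 reads the Aux4 transcript best was not tested.

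**Figure D2:**
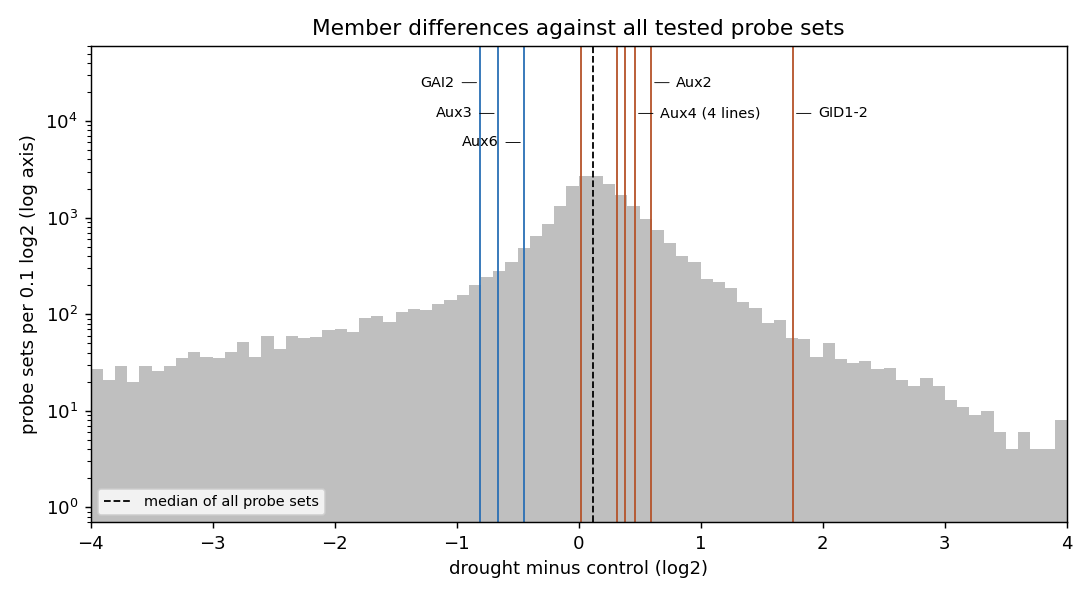
Number of tested probe sets (log axis) by drought minus control difference in bins of 0.1 log2 units, with a vertical line for each of the 9 probe sets and a dashed line at the median of all probe sets, 0.12. The line of GID1-2 at 1.76 lies in the right tail and those of the auxin genes lie in the bulk of the distribution; probe sets with differences beyond the axis are not drawn.

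Of the 9 probe sets, 8 had groups that did not overlap, 5 with drought above control and 3 with drought below, while over all tested probe sets 62.8% did not overlap, 40.1% with drought above and 22.7% with drought below. The same 8 passed the limma threshold, 5 higher and 3 lower, where 35.3% of all probe sets were called higher and 20.4% lower. GID1-2 alone among the 9 differed by at least 2-fold, which 15.3% of all probe sets did with a call. Since the contrast chose these genes, nothing is read from the counts. Relative to the median of all probe sets, the differences were 1.64 for GID1-2, -0.93 for GAI2, 0.47 for Aux2, -0.78 for Aux3 and -0.57 for Aux6. For Aux4 they were 0.34, -0.10, 0.26 and 0.19 in the order sense 1, sense 2, antisense 1 and antisense 2.

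Scaling the arrays in other ways moved all 9 probe sets, and those of them that then no longer passed the threshold were Aux4 probe sets. After spike-in centring, which removes the 0.247 by which the hybridisation controls' array medians were higher in drought, the Aux4 differences came to 0.21, -0.23, 0.14 and 0.06 in the same order, and none of the 4 passed the threshold. After quantile normalization antisense 1 (0.28) did not pass either, which left 4 of the 9 probe sets called higher, against 5 as deposited. Over all 24029 tested probe sets 6404 were then called higher, against 8485 as deposited. Spike-in centring lowered the difference of every probe set by the same 0.247. The SEs of the Aux4 probe sets were also larger with it, 0.13 to 0.14, against 0.07 to 0.11 as deposited. The difference of sense 2 was below 0 also with reporter centring (-0.04), median centring (-0.08) and quantile normalization (-0.10). GID1-2 ranged from 1.51 with spike-in centring to 2.40 after quantile normalization, Aux2 from 0.35 to 0.59, GAI2 from -1.05 to -0.81, Aux3 from -0.91 to -0.66 and Aux6 from -0.70 to -0.45 over the 5 scalings. The directions of GID1-2, GAI2, Aux2, Aux3 and Aux6 were thus the same in all 5. Quantile normalization was applied to values already centred per probe set, and a large shift was not particular to GID1-2. The ACC oxidase probe sets named ACO1 moved from 2.54 to 3.43 and from 2.57 to 3.47. The sterol methyltransferase gene SMT2-2 moved from -3.63 to -2.86. Leaving out any 1 array kept GID1-2 between 1.69 and 1.80 and GAI2 between -0.83 and -0.79. It kept Aux2 between 0.56 and 0.64, Aux4 sense 1 between 0.41 and 0.54, Aux3 between -0.73 and -0.61 and Aux6 between -0.52 and -0.38. The other Aux4 probe sets ranged from -0.07 to 0.12 for sense 2, which took either sign, from 0.29 to 0.45 for antisense 1 and from 0.28 to 0.33 for antisense 2.

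**Figure D3:**
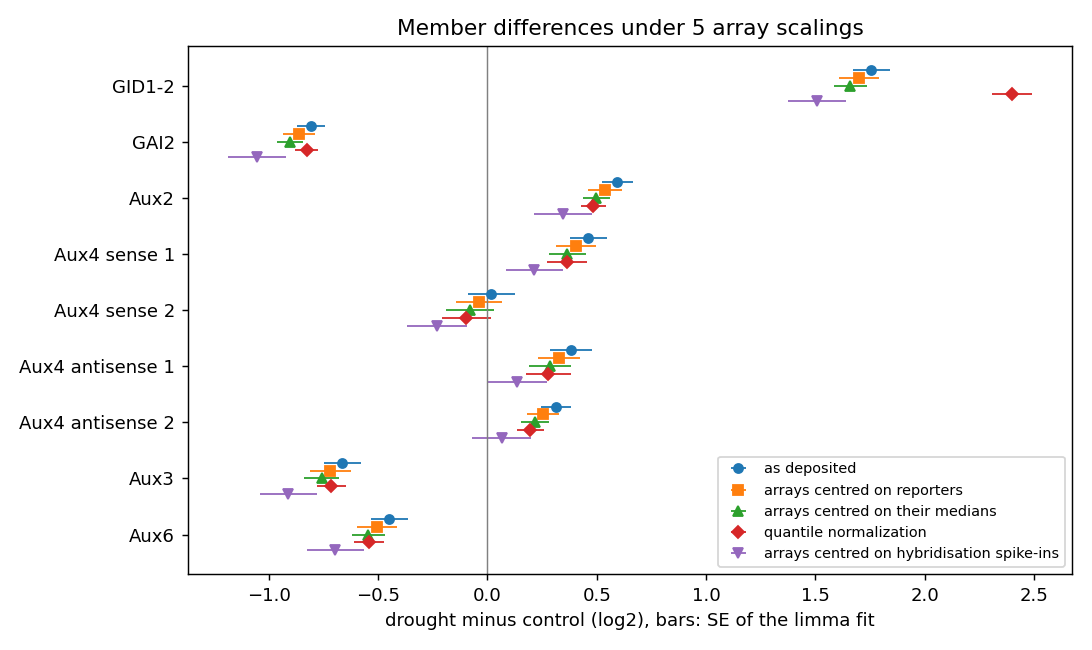
Drought minus control difference in log2 units (horizontal axis) of the 9 probe sets under 5 scalings of the arrays, with bars for the SE of the limma fit. The Aux4 probe sets move towards or across 0 with spike-in centring, GID1-2 reaches 2.40 after quantile normalization, and GAI2, Aux3 and Aux6 stay below 0.

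Within arrays the auxin pairs behaved as their separate differences fix, since each pair sets a gene chosen as higher against one chosen as lower; they are given to show the spread over arrays. Aux2 minus Aux3 was 0.64, 0.64 and 0.80 in drought leaves, against -0.52, -0.66 and -0.51 in control leaves, a change of 1.26 or 2.39-fold. Aux4 minus Aux6 depended on the Aux4 probe set. On sense 1, which had the largest of the 4 Aux4 differences, it was 0.34, 0.52 and 0.52 in drought leaves, against -0.46, -0.35 and -0.55 in control leaves, a change of 0.91. On sense 2 it was 0.13, 0.23 and 0.56 in drought leaves, against 0.09, -0.23 and -0.34 in control leaves, a change of 0.47. GAI2 minus Aux3, a pair of genes that were both lower, was -0.13, -0.06 and 0.05 in drought leaves, against 0.17, 0.01 and 0.11 in control leaves. Its change was -0.14, and the groups overlapped.

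Few other genes of these pathways carry a name here. RefSeq lists 4 GID1 genes by name, of which GID1-2 and GID1-4 have a probe set of their own, 6 GAI genes, of which GAI2 has one, and 7 Aux genes, of which these 4 have one. None of the 10 PIN auxin carrier genes nor the auxin receptor gene TIR1 was measured under its own name. GID1-4, a paralogue of GID1-2, had values of -0.04, 0.02 and 0.04 in drought leaves, against 0.06, -0.02 and -0.10 in control leaves, on an antisense-design probe set with shared probes. The groups overlapped and the difference was 0.03 (SE 0.07, limma adjusted p = 0.776). Whether the 2 receptor genes differ in response was not tested, since GID1-2 was chosen for its difference.

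Besides GID1-2 and GAI2, the gibberellin and brassinosteroid names matched 6 genes with 1 probe set each, of which 2 rose, 3 fell and 1, GID1-4, did not pass, against 35.3% called higher and 20.4% called lower over all probe sets. Their median difference was -0.49, where that of all probe sets was 0.12. The 3 that fell were SMT genes for sterol methyltransferases, which act on the sterols from which brassinosteroids, and also membrane sterols, are made. SMT2-2 had values of -1.83, -1.59 and -2.50 in drought leaves, against 1.66, 1.72 and 1.59 in control leaves, and fell by 3.63 (SE 0.20, 12.4-fold, limma adjusted p = 8.54e-07). Its drought arrays were spread more widely than its control arrays and lay far below them. SMT1 fell by 1.23 (SE 0.07, limma adjusted p = 1.13e-06) and SMT2-1 by 1.02 (SE 0.08, limma adjusted p = 1.005e-05), each without overlap between the groups. The probe sets of SMT2-2 and SMT1 are marked as holding probes shared between transcripts.

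The 2 that rose are named after Arabidopsis mutants with a light-grown form in the dark. DET3, which in Arabidopsis encodes a subunit of the vacuolar proton pump, rose by 0.38 (SE 0.07, limma adjusted p = 0.00156). It was not called after spike-in centring (0.14, SE 0.13, limma adjusted p = 0.412). The DET3 probe set also holds shared probes. DET2, a steroid reductase of brassinosteroid synthesis in Arabidopsis, rose by 0.28 (SE 0.09, limma adjusted p = 0.0262). The DET2 call was lost with median, reporter or spike-in centring, with quantile normalization, and without any one of drought replicates 2 and 3 and control replicates 1 and 2, with adjusted p-values in limma from 0.0516 to 0.876.

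Among the auxin names, ARF1 was the only gene besides the 4 Aux genes. The name is used both for auxin response factors and for ADP-ribosylation factors, and the tables used here do not say which it is. ARF1, on an antisense-design probe set with shared probes, had values of -0.03, -0.32 and -0.23 in drought leaves, against 0.09, 0.03 and 0.07 in control leaves. It fell by 0.26 (SE 0.09, limma adjusted p = 0.0338), and the call was lost when any array other than drought replicate 1 was left out. A further 7 genes with ethylene or jasmonate synthesis names, among them the ACC oxidase genes, had 5 of 10 probe sets higher, 1 lower and 4 that did not pass, against 35.3% called higher and 20.4% called lower over all probe sets. Their median difference was 0.18, where that of all probe sets was 0.12, and with spike-in centring 3 were higher and 2 lower.

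The named genes whose pattern lay nearest to each hormone gene were found by the root mean square difference of centred log2 values over the 6 arrays, among 315 other probe sets with a gene name. For GID1-2 they were the peroxidase gene pod1 at 0.07 and the NAC transcription factor gene NAC2 at 0.09. For GAI2 they were CSD2a at 0.04 and a gene named peroxidase (LOC107905931) at 0.05. Aux2 lay nearest to PEPC1, named for phosphoenolpyruvate carboxylase, at 0.02 and to an antisense-design probe set of EXPA3D, an expansin, at 0.05. Aux3 lay nearest to CEL and an annexin gene (LOC107913673), and Aux6 to CNGC2 and the tubulin gene BTub4, at 0.05 to 0.07. Aux4 sense 1 lay nearest to CBF17 and CAT2, both at 0.09. With 2 groups and centred values, a like difference between the groups is most of what this measure sees.

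The tissue label could not be checked against levels, because centred values hold none. Of the marker names, RCA1 and PEPC1, which were listed under leaf by name only, both rose by 0.60 (limma adjusted p = 8.33e-05 and 0.000133). Of 4 fibre markers 3 fell and 1 rose, and the median over the 4 on an array was -1.94 to -1.60 in drought leaves, against 1.65 to 1.72 in control leaves. Of 5 flower MADS-box markers 2 fell and 3 did not pass in limma. Of 6 probe sets of seed storage and maturation genes 0 passed in limma, 1 did at an unadjusted p under 0.05 and up to 2 passed under the other scalings and with 1 array left out. Over all probe sets 35.3% were called higher and 20.4% lower. The part of the marker genes in the differences of the hormone genes was not tested.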

How the data were processed

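Leaf RNA of 3 drought and 3 control samples was hybridised to Affymetrix cotton arrays, 1 per sample. The deposited table holds log2 values that the authors made with RMA, per the submitters' processing notes, and each row's median over the 6 arrays is 0 (largest absolute median 5e-07); how it was centred, the RMA version and a genome build for the array are not given in the sources used here. That the scale is log2 is taken from RMA and the range of the values. Before fitting, 103 Affymetrix control probe sets were set aside, leaving 24029, among which the 52 reporter probe sets were kept. All 697 probe sets with 1 gene were found in the RefSeq table of assembly Gossypium_hirsutum_v2.1, used for names only; 46 with several genes name none, and 23286 have no gene there.

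Drought was compared with control by lmFit and eBayes of limma 3.58.1 (R 4.3.3) over all probe sets, without a block, with two-sided Benjamini-Hochberg adjusted p and a threshold of 0.05. The code of the fit was checked on simulated data in which few probe sets changed. That is unlike these data, so the check covers no error rate here. Alternatives were centring arrays on their medians, on 27 hybridisation spike-in or 52 reporter probe sets, quantile normalization and robust eBayes. Others were the replicate number as a block, leaving out each array and, for the hormone name lists only, 1 probe set per gene. The 6 genes, the name lists and the tests were chosen with earlier results of these data known. The text names every probe set of the 6 genes, every other gene whose name matched the gibberellin, brassinosteroid or auxin list, and the 2 genes nearest in pattern to each of their probe sets; of the other 3 Aux4 probe sets the nearest genes stand in the closing section. A lipid transfer protein gene that also bears the name GH3 was left out of the auxin list. Background and dim-probe filters could not be applied to centred values.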

Additional observations from a re-analysis of the deposited data

Results flagged for a closer look

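Control probe sets, which entered no comparison of leaf genes, differed between the groups. Over the 27 spike-in probe sets for hybridisation, the array medians were 0.19, 0.25 and 0.01 in drought arrays, against -0.14, -0.01 and -0.13 in control arrays, a difference of 0.247 on the log2 scale. Over the 42 poly-A spike-in probe sets they were 0.16, 0.08 and 0.13 in drought arrays, against -0.12, -0.12 and -0.07 in control arrays, a difference of 0.224. In both classes every drought array lay above every control array. The same held for 40.1% of all tested probe sets, among them GID1-2, Aux2 and 3 of the 4 Aux4 probe sets. The part of this in the differences of the hormone genes was not tested beyond the centring given above.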

How the results depend on the processing

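After centring arrays on the spike-ins for hybridisation, 3989 of all probe sets were higher, against 8485 as deposited. Of the 9 hormone probe sets 2 were higher past the threshold, against 5. Of the 6 other genes matched by gibberellin and brassinosteroid names 0 were higher, against 2. Among the ethylene and jasmonate names 3 were higher and 2 lower, against 5 and 1. ACO3, an ACC oxidase gene, gave -0.0467 there and 0.20 as deposited. With median centring, quantile normalization or reporter centring 1 of the 6 genes with gibberellin and brassinosteroid names was higher. Leaving out 1 array gave 7409 to 8275 higher and 4465 to 5089 lower probe sets. It gave 1 to 2 higher genes among the gibberellin and brassinosteroid names and 0 to 1 lower gene (ARF1) among the auxin names. The causes were not tested. Robust eBayes left each of these counts within 1.5 times. Taking 1 probe set per gene, done for the hormone name lists only, did the same for the counts of those lists.

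Same-numbered drought and control arrays deviated together only weakly (r = 0.0326, 0.0453 and 0.0741 across probe sets, with -0.0536 to 0.00707 between other numbers), although each array correlated best with its own number, so the numbers were not taken as a pairing. With the replicate number as a block, 8444 probe sets were higher and 4800 lower, and among the genes named ACO3 no longer passed (limma adjusted p = 0.0615). With 3 arrays per group and values that hold no level, how far each probe set lay above background was not known.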

Other observations

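The Aux4 probe sets other than sense 1 had other nearest genes by pattern over the 6 arrays. Antisense 2 lay nearest to SAMDC and ANT1, both at a root mean square difference of 0.04. Antisense 1 lay nearest to an antisense-design probe set of the cellulose synthase gene CelA1 at 0.08 and to SKD1 at 0.09. Sense 2, whose groups overlapped, lay nearest to the receptor gene GID1-4 at 0.09 and to NACL2 at 0.10.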
